A study of Mus musculus with 23 samples.

Results

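The CC chemokine genes followed here were Ccl2, Ccl3, Ccl4, Ccl6, Ccl7, Ccl8, Ccl9, Ccl12 and Ccl24, taken from the count table by gene symbol. These 9 genes, of 33280 genes in the table, were read across 23 libraries of sorted brain macrophages in 5 groups. All mice carried 1 Ccr2CreERT2 allele and the R26tdT reporter on both alleles, and all underwent thromboembolic stroke, induced by thrombin in the middle cerebral artery, 1 day before the cells were sorted. The treated mice had been gavaged with BLZ945, which blocks the CSF-1 receptor and so removes macrophages of the brain, at 200 mg/kg on 7 days and 8 weeks before the stroke, and control mice (CTL) received the vehicle. Tamoxifen, 2 mg per day on the last gavage day and on 2 later days, marked cells that expressed Ccr2 at that time, and their progeny, with tdTomato (tdT). Microglia (MG) were gated as CD45int CD11b+ CD206- cells and subdural CNS-associated macrophages (sdCAMs), the macrophages of the leptomeninges and of the perivascular space, as CD45int CD11b+ CD206int-high cells, from coronal brain slices without the choroid plexus. MG and tdT- sdCAMs gave 5 libraries each from CTL mice (MG CTL and tdT- CTL) and 5 each from treated mice (MG BLZ945 and tdT- BLZ945), and tdT+ sdCAMs of treated mice gave 3 (tdT+ BLZ945). Both sexes were used, and the replicate names begin with F or M accordingly. A CTL library held cells of 1 animal and a BLZ945 library a pool of 2 animals, except F2 with 1. A Cre driven by Ccr2 does not mark every descendant of a monocyte, which limits tdT as a record of origin.

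CC chemokines are small secreted proteins that bind receptors of the CCR family on leukocytes and direct where these cells move. Ccl2, Ccl7 and Ccl12 are monocyte chemoattractants and ligands of Ccr2, the receptor that draws inflammatory monocytes from the blood. Ccl3 and Ccl4, the macrophage inflammatory proteins, are made quickly by activated macrophages, and Ccl3 acts in part through Ccr1. Ccl6 and Ccl9 are rodent chemokines that act through Ccr1, Ccl24 is an eotaxin that attracts eosinophils through Ccr3, and mouse Ccl8 is known as a ligand of Ccr8. In the table of RefSeq genes, 8 of the 9 members lie on chromosome 11, where Ccl2 is next to Ccl7, Ccl12 next to Ccl8, and Ccl9, Ccl6, Ccl3 and Ccl4 follow one another, while Ccl24 lies on chromosome 5.

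Total counts lay between 9433960 and 13276081 per library. Levels are given as CPM, that is, counts relative to the library total after TMM scaling, which normalizes between libraries, and fold changes come from edgeR on the counts, with p-values adjusted over all genes tested. A gene with an adjusted p under 0.05 is referred to as called. The sort held at the level of markers. The summed CPM of 4 microglia markers (P2ry12, Tmem119, Sall1 and Siglech) was 6348 to 11183 in MG libraries and 482 to 1055 in sdCAM libraries, whereas that of the 5 sdCAM markers (Mrc1, Pf4, Cd163, Lyve1 and Ms4a7) was 9.89 to 47.6 and 8277 to 14063. Xist was at 106 to 292 CPM in the 14 libraries with F names and at most 2.20 CPM in the 9 with M names, so that no name was contradicted. In 1 library, tdT- BLZ945 F1, markers of other leukocytes stood out, with summed monocyte markers at 217 CPM and dendritic cell markers at 89.6 CPM, against group medians of 22.8 and 19.6. Without it, tdT- against MG BLZ945 still called 8 of 9 members. The tdT- BLZ945 M1 library also held Plac8, a monocyte marker, at 73.3 CPM, close to the 78.2 CPM of F1, and without M1 the same comparison called 7 members, with Ccl3 lost. Fewer cells of a type and less RNA per cell cannot be told apart in such bulk libraries.

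The 2 populations differed in the levels of most of these 9 members, and the tdT- comparisons of CTL and of BLZ945 mice called the same 8. In tdT- CTL sdCAMs against MG CTL, 8 of 9 members were called, of which Ccl2, Ccl6, Ccl7, Ccl8, Ccl9 and Ccl24 were higher and Ccl3 and Ccl4 lower. All 12697 genes tested there gave 25.6% called, 15.3% higher and 10.3% lower. In BLZ945 mice the tdT- sdCAMs again had 6 members higher and 2 lower than MG, with 32.4% of 12697 genes called, 18.3% higher and 14.1% lower. In tdT+ BLZ945 sdCAMs against MG BLZ945, 7 of 9 members were called, 6 higher and 1 lower, with 25.2% of 13790 genes called, 14.6% higher and 10.6% lower. The median log2 fold change of the members was 2.00, 2.26 and 2.26 in these 3 comparisons, and that of all genes -0.01, -0.02 and -0.01. As the members were chosen with earlier results of these data known, these counts and medians are a description and no test of the set. The last 2 comparisons share the MG BLZ945 libraries. Ccl12 was not called in any of the 3. Ccl8, called higher in each, passed the filter of edgeR on low counts only through the sdCAM libraries.

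**Figure D1:**
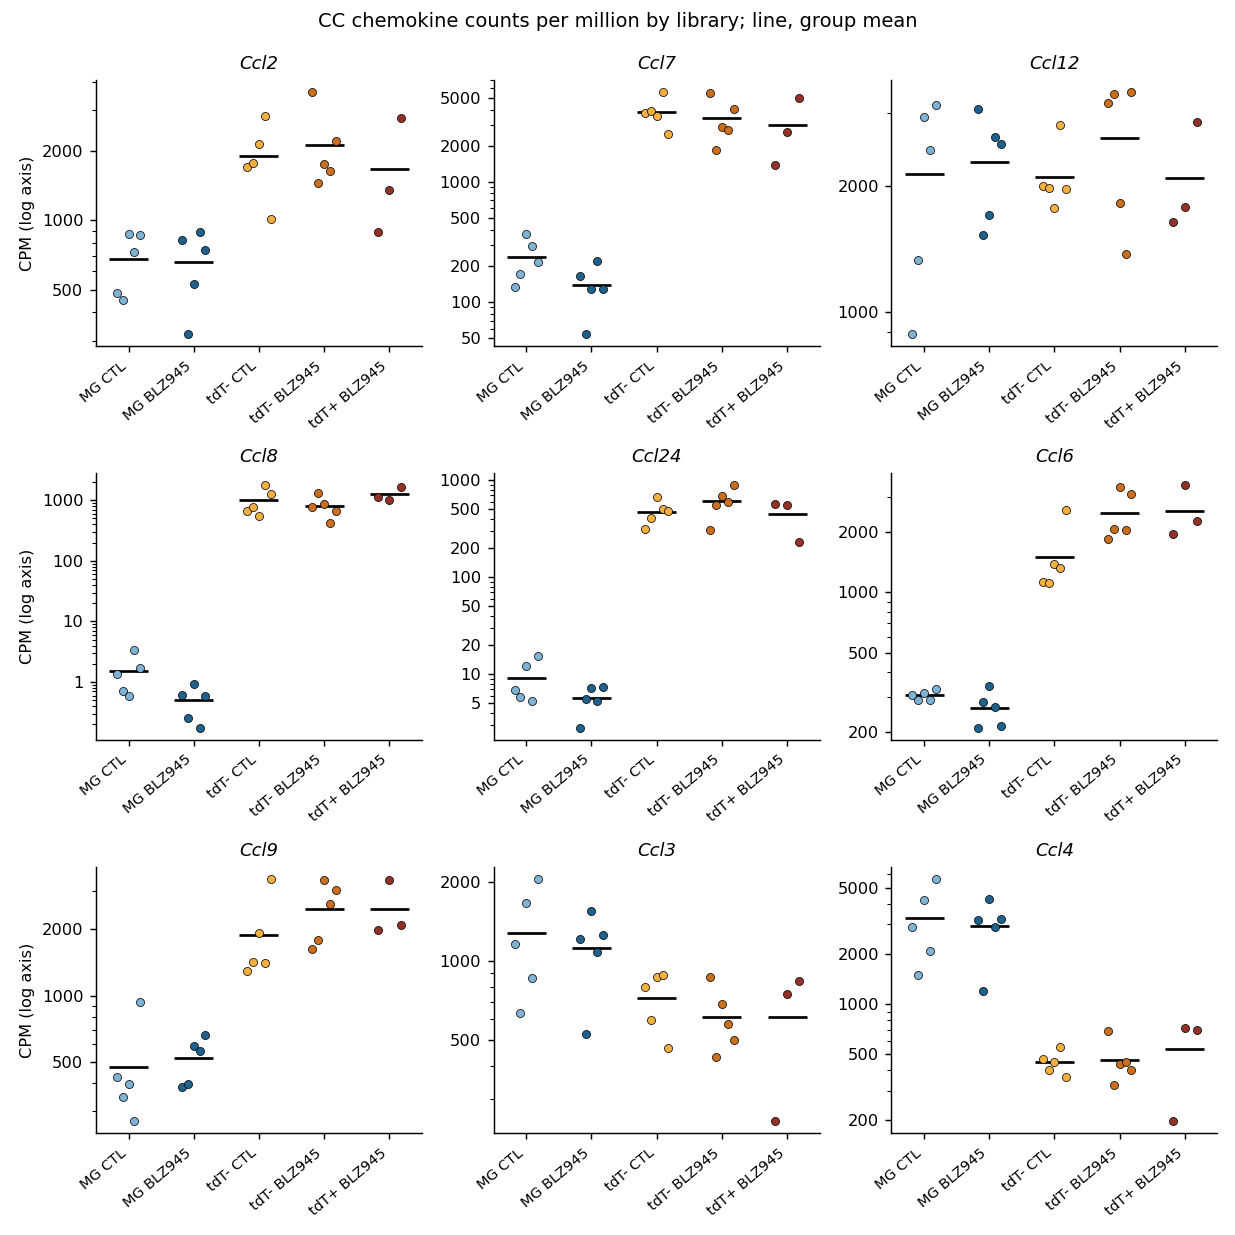
Level of each CC chemokine in every library, as CPM on a log axis whose range differs between panels, by group. A point is 1 library and the line is the group mean. Ccl8 and Ccl24 were at 15.4 CPM or less in all MG libraries and at 232 CPM or more in all sdCAM libraries, Ccl4 was higher in all MG libraries, and Ccl12 overlapped in all groups.

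Among the monocyte chemoattractants, Ccl7 separated the populations. In MG, Ccl7 was at 132, 172, 369, 293 and 216 CPM in CTL (F1, F2, F3, M1 and M2) and at 165, 53.9, 129, 221 and 128 CPM in BLZ945. In tdT- sdCAMs it reached 3733, 3897, 3504, 5617 and 2486 CPM in CTL and 5517, 1843, 2865, 2712 and 4048 CPM in BLZ945. In tdT+ BLZ945 sdCAMs it was 1394 CPM in F2, 2599.7 in F3 and 4984 in M2. Every sdCAM library was above every MG library, and the lowest sdCAM libraries were those of F2 of the BLZ945 mice. Ccl7 was 16.4-fold higher in sdCAMs in CTL mice (log2 fold change 4.03, SE 0.37, adjusted p = 2.36e-08) and 24.6-fold higher in tdT- sdCAMs in BLZ945 mice (4.62, SE 0.38, adjusted p = 4.70e-09). For tdT+ sdCAMs the factor was 21.5 (log2 fold change 4.42, SE 0.43, adjusted p = 2.33e-08).

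Ccl2, the neighbour of Ccl7 and the main ligand of Ccr2, differed less. Its levels ran from 321 to 889 CPM in the 10 MG libraries and from 1010.0 to 3609 CPM in the 10 tdT- libraries, with no overlap. The 3 tdT+ libraries were at 888 (F2), 1349 (F3) and 2791 CPM (M2), and F2 lay within the MG range. Ccl2 was 2.80-fold higher in sdCAMs in CTL mice (log2 fold change 1.49, SE 0.30, adjusted p = 0.000715) and 3.25-fold higher in tdT- sdCAMs of BLZ945 mice (1.70, SE 0.30, adjusted p = 0.000172). The difference for tdT+ sdCAMs (1.34, SE 0.36, adjusted p = 0.00817) was not called without the M2 library (0.76, adjusted p = 0.154). The ratio of Ccl7 to Ccl2 within a library, a value chosen after it was seen and given with no test, averaged 0.346 ± 0.0784 for MG CTL and 0.207 ± 0.0384 for MG BLZ945 (mean ± SD, 5 libraries each). For sdCAMs it averaged 2.09 ± 0.306 in tdT- CTL, 1.58 ± 0.203 for tdT- BLZ945 (5 libraries each) and 1.76 ± 0.179 for the 3 tdT+ libraries.

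Ccl12, the third ligand of Ccr2, was as abundant in MG as in sdCAMs within the error. MG libraries averaged 2144 ± 989 CPM (CTL) and 2288 ± 645 CPM (BLZ945), as mean ± SD of 5 each. For sdCAMs the means were 2106 ± 396 CPM in tdT- CTL, 2608 ± 935 CPM for tdT- BLZ945 (5 libraries each) and 2092 ± 655 CPM for the 3 tdT+ libraries. The libraries ranged from 887 CPM (MG CTL F1) to 3361 CPM (tdT- BLZ945 M2), and all 5 groups overlapped. The log2 difference of tdT- sdCAMs from MG was -0.02 in CTL mice (95% interval -0.64 to 0.60, adjusted p = 0.977) and 0.20 in BLZ945 mice (-0.42 to 0.82, adjusted p = 0.649), and for tdT+ sdCAMs -0.13 (-0.84 to 0.58, adjusted p = 0.824). Differences of up to 0.84 on the log2 scale therefore remained possible.

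Ccl8, the gene next to Ccl12, had the widest gap of all members. In MG it was at 1.38, 0.700, 0.599, 3.33 and 1.69 CPM in CTL (F1, F2, F3, M1 and M2) and at 0.602, 0.251, 0.938, 0.177 and 0.592 CPM in BLZ945, from 2 to 39 counts per library. In tdT- sdCAMs the values were 663, 777, 546, 1764 and 1290.2 CPM in CTL and 767, 1334, 866, 422 and 661 CPM in BLZ945. The tdT+ BLZ945 libraries had 1131 (F2), 1025 (F3) and 1638 CPM (M2). The lowest sdCAM library, tdT- BLZ945 M1, was still far above the highest MG library, MG CTL M1. The ratio of the mean CPM was 655 in CTL mice (95% interval from the 91 MG counts 534 to 814), 1582 for tdT- (29 MG counts, 1101 to 2362) and 2470 for tdT+ sdCAMs in BLZ945 mice (1720 to 3687), where the intervals cover counting error in MG only and 2 of the 5 MG BLZ945 libraries held 3 counts or fewer. The adjusted p was 5.97e-12, 3.18e-12 and 2.36e-13 in that order. Ccl8 was too low to be tested in MG alone and passed the filter on low counts here through its sdCAM counts. These p-values are therefore no support beyond the levels themselves.

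The upstream sequences of Ccl12 and Ccl8 are shown because these adjacent genes had so different a pattern, the former with overlapping levels in all groups and the latter at 3.33 CPM or less in every MG library. Both are the 250 bases before the RefSeq transcription start in GRCm38.p6, on the + strand at chr11:82101595-82101844 for Ccl12 and chr11:82114935-82115184 for Ccl8, written 5′ to 3′, with capitals marking a match to the core of the PU.1 motif (GAGGAA, on either strand).
Ccl12: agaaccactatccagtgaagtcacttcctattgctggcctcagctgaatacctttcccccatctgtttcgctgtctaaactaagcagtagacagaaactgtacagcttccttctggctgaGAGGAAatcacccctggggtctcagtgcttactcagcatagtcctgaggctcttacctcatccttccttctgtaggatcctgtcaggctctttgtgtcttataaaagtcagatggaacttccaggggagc
Ccl8: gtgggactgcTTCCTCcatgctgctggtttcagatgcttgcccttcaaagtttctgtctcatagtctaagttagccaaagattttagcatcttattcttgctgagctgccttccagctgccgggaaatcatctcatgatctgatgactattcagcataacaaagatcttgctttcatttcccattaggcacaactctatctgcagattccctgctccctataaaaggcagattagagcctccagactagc
Each window held 1 match, 130 bases before the start in Ccl12 and 240 bases before it in Ccl8, and 23.3% of the 32851 promoters searched hold at least 1. Neither window matched the AP-1 motif (TGANTCA), the C/EBP motif (TTNNGCAA) or the kappa-B motif of NF-kB, which 6.75%, 9.56% and 3.90% of promoters hold. The aligned windows were identical at 56.9% of positions, against 48.1% to 54.2% for the other pairs of members with a sequence.

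Ccl24, the eotaxin, was also far higher in sdCAMs than in MG. It was at 6.88, 5.78, 12.1, 5.29 and 15.4 CPM in MG CTL (F1, F2, F3, M1 and M2) and at 2.81, 5.53, 7.16, 5.23 and 7.44 CPM in MG BLZ945. In tdT- sdCAMs it was at 310.2, 404, 664, 508 and 486 CPM in CTL and 309, 559, 685, 601 and 884 CPM in BLZ945. The tdT+ BLZ945 libraries were at 562 (F2), 557 (F3) and 232 CPM (M2). The populations did not overlap, and tdT+ M2, the library with the highest Ccl8 of its group, had the lowest Ccl24 of all sdCAM libraries. The gene was 52.2-fold higher in sdCAMs in CTL mice (log2 fold change 5.71, SE 0.36, adjusted p = 5.65e-11), 108-fold higher in tdT- (6.75, SE 0.38, adjusted p = 9.45e-12) and 79.4-fold higher in tdT+ sdCAMs of BLZ945 mice (6.31, SE 0.40, adjusted p = 1.65e-11).

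The rodent Ccr1 ligands Ccl6 and Ccl9 were higher in sdCAMs by smaller factors. Ccl6 was at 305, 288, 313, 288 and 328 CPM in MG CTL (F1, F2, F3, M1 and M2) and at 210.0, 283.4, 340.1, 267 and 215 CPM in MG BLZ945. In tdT- sdCAMs it was at 1132, 1117, 1393, 1330.1 and 2583 CPM in CTL and at 1860.1, 2072, 3377, 2061 and 3117 CPM in BLZ945. Among tdT+ BLZ945 libraries it was at 1969 (F2), 3447 (F3) and 2295 CPM (M2). MG CTL libraries varied little, every sdCAM library was above every MG library, and tdT- CTL M2 stood above the other libraries of its group. Ccl6 was 5.00-fold higher in sdCAMs in CTL mice (log2 fold change 2.32, SE 0.22, adjusted p = 3.95e-08), 9.57-fold higher in tdT- (3.26, SE 0.23, adjusted p = 3.90e-10) and 9.78-fold higher in tdT+ sdCAMs of BLZ945 mice (3.29, SE 0.25, adjusted p = 3.95e-10).

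Ccl9 was at 269 to 939.7 CPM in MG and at 1288 to 3392 CPM in sdCAMs, again without overlap. Its highest MG library was MG CTL M2 and its highest sdCAM library tdT- CTL M2, from the same mouse. The gene was 3.99-fold higher in sdCAMs in CTL mice (log2 fold change 2.00, SE 0.32, adjusted p = 5.96e-05), 4.80-fold higher in tdT- (2.26, SE 0.33, adjusted p = 1.33e-05) and 4.78-fold higher in tdT+ sdCAMs of BLZ945 mice (2.26, SE 0.35, adjusted p = 2.85e-05). The sequences before Ccl9 and Ccl6 are shown as those of neighbouring genes that were both higher in sdCAMs, from the - strand at chr11:83578637-83578886 and chr11:83593088-83593337, 250 bases each, with matches to the AP-1 and kappa-B motifs in capitals.
Ccl9: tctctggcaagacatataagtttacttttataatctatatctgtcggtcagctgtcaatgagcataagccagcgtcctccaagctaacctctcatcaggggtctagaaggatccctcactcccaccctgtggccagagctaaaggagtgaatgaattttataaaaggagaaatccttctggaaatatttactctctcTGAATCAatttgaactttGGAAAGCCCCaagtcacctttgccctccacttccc
Ccl6: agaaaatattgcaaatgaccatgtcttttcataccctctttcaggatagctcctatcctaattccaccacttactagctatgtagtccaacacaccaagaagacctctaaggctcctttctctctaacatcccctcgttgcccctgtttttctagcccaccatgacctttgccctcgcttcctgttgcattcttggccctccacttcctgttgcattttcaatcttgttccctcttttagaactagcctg
The Ccl9 window held 1 AP-1 match 53 bases and 1 kappa-B match 35 bases before the start, with no overlap between them, and the Ccl6 window held no match to any of the 4 motifs. 

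Ccl4 was the member with the clearest excess in MG. It was at 2907, 1502, 4212, 2089.9 and 5644 CPM in MG CTL (F1, F2, F3, M1 and M2) and at 3204, 1190.0, 4240.2, 2914 and 3228 CPM in MG BLZ945. In tdT- sdCAMs it was at 470.0, 401, 449.8, 554 and 366 CPM in CTL and 689.7, 328, 433, 450.3 and 401 CPM in BLZ945. In tdT+ BLZ945 sdCAMs it was at 198 (F2), 712 (F3) and 699 CPM (M2). The lowest MG library, BLZ945 F2, was above the highest sdCAM library. Ccl4 was 7.26-fold lower in sdCAMs in CTL mice (log2 fold change -2.86, SE 0.33, adjusted p = 7.16e-07), 6.37-fold lower in tdT- (-2.67, SE 0.33, adjusted p = 1.65e-06) and 5.51-fold lower in tdT+ sdCAMs of BLZ945 mice (-2.46, SE 0.44, adjusted p = 0.000185).

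Ccl3, which lies beside Ccl4, overlapped between the populations. Its levels were 1166, 633, 1666, 862 and 2057 CPM in MG CTL (F1, F2, F3, M1 and M2) and at 1209, 527, 1554, 1080.4 and 1259 CPM in MG BLZ945. In tdT- sdCAMs it was at 799.5, 595, 873, 885 and 466 CPM in CTL and 871, 433, 688, 578 and 499 CPM in BLZ945. In tdT+ BLZ945 sdCAMs it was at 246 (F2), 747 (F3) and 839.9 CPM (M2). The F2 libraries of the BLZ945 mice were the lowest of each of their groups. Ccl3 was 1.75-fold lower in tdT- sdCAMs of CTL mice (log2 fold change -0.81, SE 0.30, adjusted p = 0.0479) and 1.82-fold lower in those of BLZ945 mice (-0.86, SE 0.30, adjusted p = 0.0293), and the value for tdT+ sdCAMs missed the threshold (-0.88, SE 0.39, adjusted p = 0.0993).

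The calls on Ccl3 were fragile. In CTL mice the call was lost with the animal as a block (adjusted p = 0.0683) and without any 1 of 7 libraries (MG CTL F1, F3 or M2, or tdT- CTL F1, F2, M1 or M2, adjusted p = 0.0503 to 0.176). In BLZ945 mice it was kept with the block (adjusted p = 0.0282) and lost without any 1 of 6 libraries (MG BLZ945 F1, F3 or M2, or tdT- BLZ945 F2, M1 or M2, adjusted p = 0.0511 to 0.0841). Of the 7 other alternatives, the block among them, 3 kept the call in CTL mice and 6 in BLZ945 mice. For tdT+ sdCAMs Ccl3 was called without the MG BLZ945 F2 library (adjusted p = 0.0432). The sequence before Ccl3 is shown as that of the member for which the populations were closest among those called, from the - strand at chr11:83649379-83649628, with the PU.1 core in capitals, 33 bases before the start.
Ccl3: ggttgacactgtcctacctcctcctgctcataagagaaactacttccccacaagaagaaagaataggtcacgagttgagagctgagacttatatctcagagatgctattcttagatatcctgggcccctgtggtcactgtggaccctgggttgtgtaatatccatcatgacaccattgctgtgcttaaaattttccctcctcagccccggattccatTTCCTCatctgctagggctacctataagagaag
The ratio of Ccl4 to Ccl3 within a library, given with no test, averaged 2.51 ± 0.143 for MG CTL and 2.58 ± 0.190 for MG BLZ945 (mean ± SD, 5 libraries each). For sdCAMs it averaged 0.637 ± 0.101 in tdT- CTL, 0.752 ± 0.0705 for tdT- BLZ945 (5 libraries each) and 0.863 ± 0.0793 for the 3 tdT+ libraries. MG libraries lay between 2.26 and 2.74 and sdCAM libraries between 0.515 and 0.953.

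**Figure D2:**
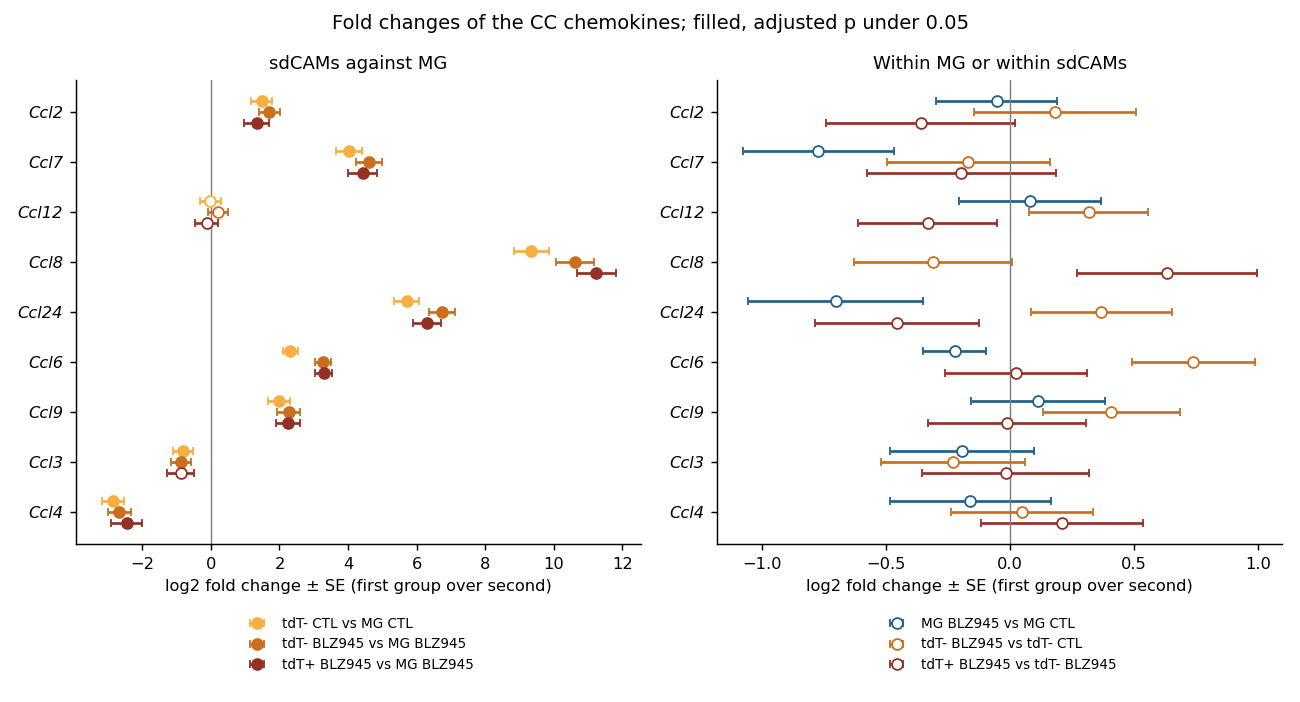
Log2 fold change of each CC chemokine with its SE, from edgeR, for sdCAMs against MG (left) and within MG or within sdCAMs (right, on a narrower axis). Filled points were called at an adjusted p under 0.05. Ccl8 reached 9.35 to 11.24 on the left, Ccl12 stayed near 0, no point on the right is filled, and Ccl8 in MG has no point because it was too low to be tested.

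The levels of the members in the population where they were lower are set here beside those of the sorting markers. The part of carried-over cells in the results was not tested. The MG CTL mean was 0.153% of the tdT- CTL mean for Ccl8 and 1.92% for Ccl24, against 0.0520% (Lyve1) to 0.435% (Mrc1) for the 5 sdCAM markers. In BLZ945 mice it was 0.0632% of the tdT- mean for Ccl8 and 0.928% for Ccl24, against 0.0137% (Lyve1) to 0.413% (Ms4a7). Ccl8 therefore lay within the range of these markers in MG, and Ccl24, Ccl7 (6.15% and 4.10%), Ccl6 (20.1% and 10.5%), Ccl9 (25.2% and 20.99%) and Ccl2 (35.9% and 31.0%) lay above it. In the other direction, the tdT- CTL mean of Ccl4 was 13.7% of the MG CTL mean and that of Ccl3 56.7%, against 1.87% (Tmem119) to 11.2% (Siglech) for the 4 microglia markers. In BLZ945 mice, Ccl4 was at 15.6% and Ccl3 at 54.5%, against 0.768% (Sall1) to 26.4% (Siglech). Summed markers of neurons (at most 12.0 CPM in MG and up to 108 CPM in sdCAMs) and of fibroblasts (0.153 to 2.22 CPM in MG and 15.1 to 57.2 CPM in sdCAMs) were also higher in sdCAM libraries, and their part was not tested either.

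To compare genes with each other, CPM was divided by the exon length of each gene in the GENCODE M21 annotation, which merges all transcripts of a gene. Per kilobase, the 2 most abundant members in MG were Ccl4, with a mean level of 4956 CPM per kb in CTL and 4478 in BLZ945, and Ccl12, with 3992 and 4260.5. In sdCAMs they were Ccl7, at 4803 (tdT- CTL), 4241 (tdT- BLZ945) and 3736 CPM per kb (tdT+ BLZ945), and Ccl12, at 3922, 4857 and 3897. As a share of the summed level per kb of the 9 genes, Ccl4 made up 41.1% ± 8.24 (SD, n = 5) in MG CTL and 4.34% ± 0.514 (SD, n = 5) in tdT- CTL. Ccl7 went the other way, with 2.66% ± 0.924 and 30.2% ± 4.87, and so did Ccl8, with 0.0285% ± 0.0219 and 12.1% ± 4.42. The share of Ccl12 was 33.8% ± 9.48 in MG CTL and 24.9% ± 1.36 in tdT- CTL. In BLZ945 mice, MG had 38.7% ± 7.58 Ccl4 and 38.8% ± 8.43 Ccl12, and Ccl12 was ahead of Ccl7 by its mean in tdT- (28.6% ± 7.64 and 24.9% ± 6.49) and tdT+ sdCAMs (25.1% ± 3.58 and 22.2% ± 6.33), within the spread of the libraries. Of all counts, the 9 genes together took 0.891% ± 0.368 (CTL) and 0.832% ± 0.220 (BLZ945) among MG, and 1.36% ± 0.208 (tdT- CTL), 1.48% ± 0.298 (tdT- BLZ945) and 1.41% ± 0.431 (tdT+ BLZ945) among sdCAMs, as mean ± SD, so that the ranges of MG and sdCAMs overlapped.

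**Figure D3:**
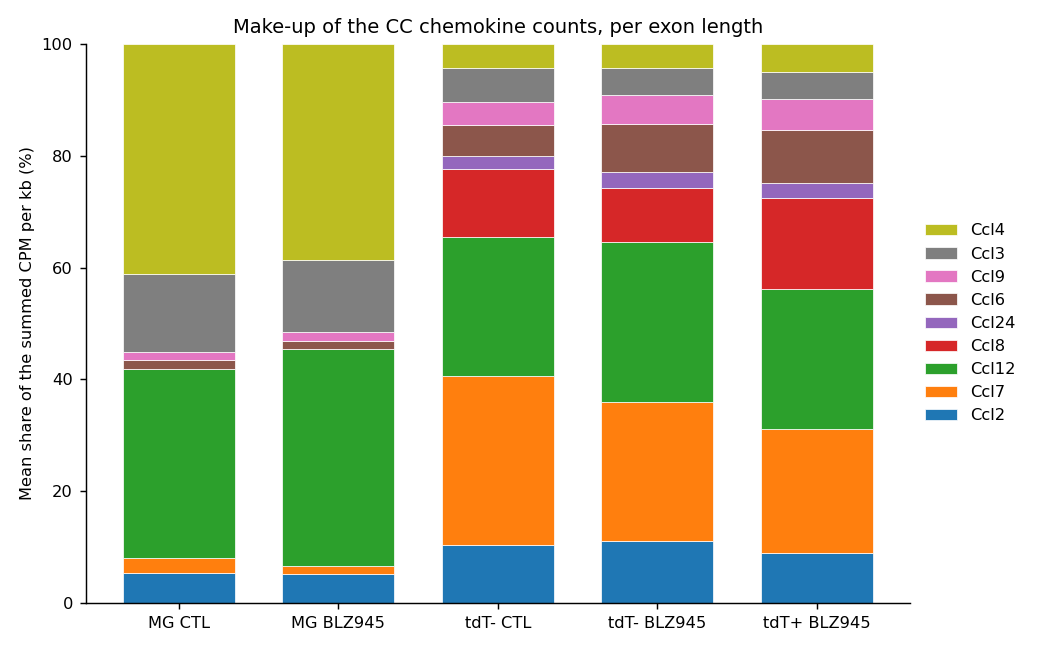
Mean share of each member in the summed CPM per kb of the 9 CC chemokines, in percent, as stacked bars from 0 to 100 for the 5 groups. Ccl4 is the largest band in MG CTL (41.1%) and Ccl7 in tdT- CTL (30.2%), Ccl12 is the largest in tdT- BLZ945 (28.6%) and tdT+ BLZ945 (25.1%) and level with Ccl4 in MG BLZ945 (38.8% and 38.7%), and the bands of Ccl8 and Ccl24 cannot be seen in MG.

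Whether MG that had repopulated after BLZ945 differed in these chemokines from MG of CTL mice was tested next. Of the 8 members tested in MG, 0 were called by edgeR with its filter on low counts or by DESeq2 and 1, Ccl7, had an unadjusted p under 0.05, where 0.408% of 11264 genes were called. Ccl8 was too low to be tested. Ccl7, whose values in each library are given above, was at 237 ± 95.1 CPM (SD, n = 5) in CTL and 139 ± 60.9 CPM (SD, n = 5) in BLZ945, and the groups overlapped. The difference was -0.77 on the log2 scale (SE 0.30, unadjusted p = 0.0217, adjusted p = 0.292), and edgeR with no filter on low counts called it (adjusted p = 0.0455). Ccl24 was at 9.10 ± 4.45 and 5.64 ± 1.85 CPM (SD, n = 5 each), a difference of -0.70 (SE 0.35, adjusted p = 0.410). Its highest library was MG CTL M2 (15.4 CPM), and the difference ran from -0.85 to -0.42 under the alternatives. Ccl6 differed by -0.22 (SE 0.13, adjusted p = 0.482), and the differences of Ccl2, Ccl3, Ccl4, Ccl9 and Ccl12 lay between -0.19 and 0.11 with adjusted p of 0.832 to 0.956. The widest 95% interval of these 5, that of Ccl4, ran from -0.85 to 0.53.

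Among tdT- sdCAMs, BLZ945 mice were compared with CTL mice. None of the 9 members was called by edgeR or by DESeq2, 1 had an unadjusted p under 0.05, and 0% of 13076 genes were called, with 697 at an unadjusted p under 0.05 and 69 called by DESeq2. The member with the lowest p was Ccl6, at 1511 ± 611 CPM (SD, n = 5) in CTL and 2497 ± 696 CPM (SD, n = 5) in BLZ945. All 5 BLZ945 libraries were above 4 of the 5 CTL libraries, with CTL M2 (2583 CPM) among the BLZ945 values. The difference was 0.74 on the log2 scale (SE 0.25, 95% interval 0.21 to 1.27, unadjusted p = 0.00912, adjusted p = 0.688). The other 8 members differed by -0.31 (Ccl8) to 0.41 (Ccl9), with adjusted p of 0.998 or more. Their 95% intervals reached from -0.98 (Ccl8) to 1.00 (Ccl9) on the log2 scale.

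The tdT+ sdCAMs, which carried the mark of Ccr2 expression, were compared with the tdT- sdCAMs of BLZ945 mice, without pairing. The 3 tdT+ libraries (F2, F3 and M2) have a tdT- library of the same animal or pool, and the tdT- libraries F1 and M1 have no tdT+ counterpart. None of the 9 members was called by edgeR or by DESeq2 and none had an unadjusted p under 0.05, where 0.206% of 13076 genes were called (27 genes, and 6 with the animal as a block). The largest difference was that of Ccl8, with 1265 ± 328 CPM among 3 tdT+ and 810.1 ± 336 CPM among 5 tdT- libraries (mean ± SD), or 0.63 on the log2 scale (SE 0.36, lower 95% bound -0.13, adjusted p = 0.816), and the groups overlapped. Ccl24 differed in the opposite direction by -0.46 (SE 0.33, adjusted p = 0.902), and by -0.74 to -0.13 under the alternatives. Of its tdT+ libraries, M2 (232 CPM) was far below F2 and F3 (562 and 557 CPM). Against the tdT- sdCAMs of CTL mice, a control shared with the comparison of tdT- BLZ945 above, the tdT+ sdCAMs had 0 of 9 members called by either tool and 1 at an unadjusted p under 0.05, with 0.283% of 13076 genes called. That member was Ccl6, at 2570.2 ± 776 CPM (SD, n = 3), which differed by 0.77 (SE 0.28, unadjusted p = 0.0152, adjusted p = 0.540).

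The effect of BLZ945 in tdT- sdCAMs was set against its effect in MG by an interaction term. None of the 9 members was called by edgeR or by DESeq2, 2 had an unadjusted p under 0.05, and 0.0394% of 12697 genes were called. The 2 were Ccl6, with a difference of effects of 0.94 on the log2 scale (SE 0.30, unadjusted p = 0.00502, adjusted p = 0.332), and Ccl24, with 1.05 (SE 0.44, unadjusted p = 0.0255, adjusted p = 0.472). For Ccl6 this set the 0.74 in sdCAMs against the -0.22 in MG, and for Ccl24 0.37 against -0.70. Ccl8 had the largest value, 1.26 (SE 0.70, adjusted p = 0.649), and rests on the few MG counts.

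Within a group, some members varied together from library to library. Each value was the log2(CPM + 1) minus the mean of its group, over 10 MG libraries and 13 sdCAM libraries, with 8 relations tested by permutation within groups and adjusted together. The tdT+ and tdT- libraries of a BLZ945 animal or pool are counted as 2 of the 13, so these are not all independent animals. In MG, Ccl3 and Ccl4 had a Pearson r of 0.998 and a Spearman rho of 1 (permutation adjusted p = 0.0004 for both, close to the smallest these permutations can give), and r was 0.997 without the 2 libraries farthest from the median. In sdCAMs r was 0.949 and rho 0.951 (permutation adjusted p = 0.00064 and 0.00115), and r 0.887 without the 2 farthest libraries. Ccl2 and Ccl7 had r = 0.898 and rho = 0.842 in MG (permutation adjusted p = 0.00384 and 0.0133) and r = 0.949 and rho = 0.929 in sdCAMs (permutation adjusted p = 0.0004 and 0.00115). Without the 2 farthest libraries these r were 0.790 and 0.886. Ccl2 and Ccl12 had r = 0.848 and rho = 0.770 in MG (permutation adjusted p = 0.00314 and 0.0133) and r = 0.930 without the 2 farthest libraries. In sdCAMs the values of r = 0.544 and rho = 0.544 missed the threshold (permutation adjusted p = 0.0789 and 0.115), with r = 0.286 without 2 libraries. Whether the relation of Ccl2 and Ccl12 differs between the populations was not tested.

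Early response genes, which cells can switch on while a tissue is digested, moved with Ccl3 between libraries. The mean log2(CPM + 1) over 14 such genes (among them Fos, Jun, Atf3, Dusp1 and Nfkbiz) was 8.77 to 9.56 in MG and 8.14 to 9.92 in sdCAMs. The lowest sdCAM libraries were tdT+ BLZ945 F2 (8.14), tdT- BLZ945 F2 (8.61) and tdT- CTL M2 (8.87), and these were also the lowest Ccl3 libraries of their groups. With this mean, Ccl3 had r = 0.887 and rho = 0.808 in sdCAMs (permutation adjusted p = 0.00443 and 0.0153) and r = 0.708 and rho = 0.564 in MG (permutation adjusted p = 0.0451 and 0.115). Without the 2 farthest libraries r fell to 0.593 in sdCAMs (tdT+ BLZ945 F2 and tdT- CTL M2 left out, unadjusted permutation p = 0.152) and 0.104 in MG (the F2 libraries of both groups left out, unadjusted permutation p = 0.901), so that the relation in MG rested on those libraries. In sdCAMs a moderate r remained, without passing the threshold. Of the 14 genes, 5 were called between tdT- CTL and MG CTL, with Fos (1.77), Fosb (2.25), Dusp1 (2.01) and Ier3 (0.67) higher and Nfkbia (-0.66) lower in sdCAMs on the log2 scale. Between tdT- BLZ945 and MG BLZ945, 7 were called, 4 higher and 3 lower, and between tdT+ BLZ945 and MG BLZ945 5, 3 higher and 2 lower. Beside these 5, 7 and 5 of 14 genes stand the 25.6%, 32.4% and 25.2% called over all genes. Some of the calls were fragile. Between tdT- CTL and MG CTL, Ier3 kept its call in 3 and Nfkbia in 4 of the 10 fits that left out 1 library, and between tdT- and MG BLZ945 both kept it in 3 of 10. In the tdT+ comparison, Egr1 and Nfkbia kept it in 4, Fos in 6 and Dusp1 in 7 of 8 such fits. Junb, lower in tdT- than in MG BLZ945, kept its call in 9 of 10, while Fos, Fosb and Dusp1 kept theirs in all such fits of both tdT- comparisons. Egr1, Nfkbiz and Hspa1b in CTL mice and Junb for tdT+ sdCAMs were called between sdCAMs and MG only under some alternatives. For BLZ945 against CTL in MG or tdT- sdCAMs, edgeR with its filter and all libraries called none. There 2 genes in MG and 0 in tdT- sdCAMs had an unadjusted p under 0.05. In MG, Dusp1 (0.58) was called with no filter on low counts (adjusted p = 0.0313). Nfkbia (0.36) was called there without MG CTL F3 (adjusted p = 0.0394). The part of this response in the chemokine levels was not tested.

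**Figure D4:**
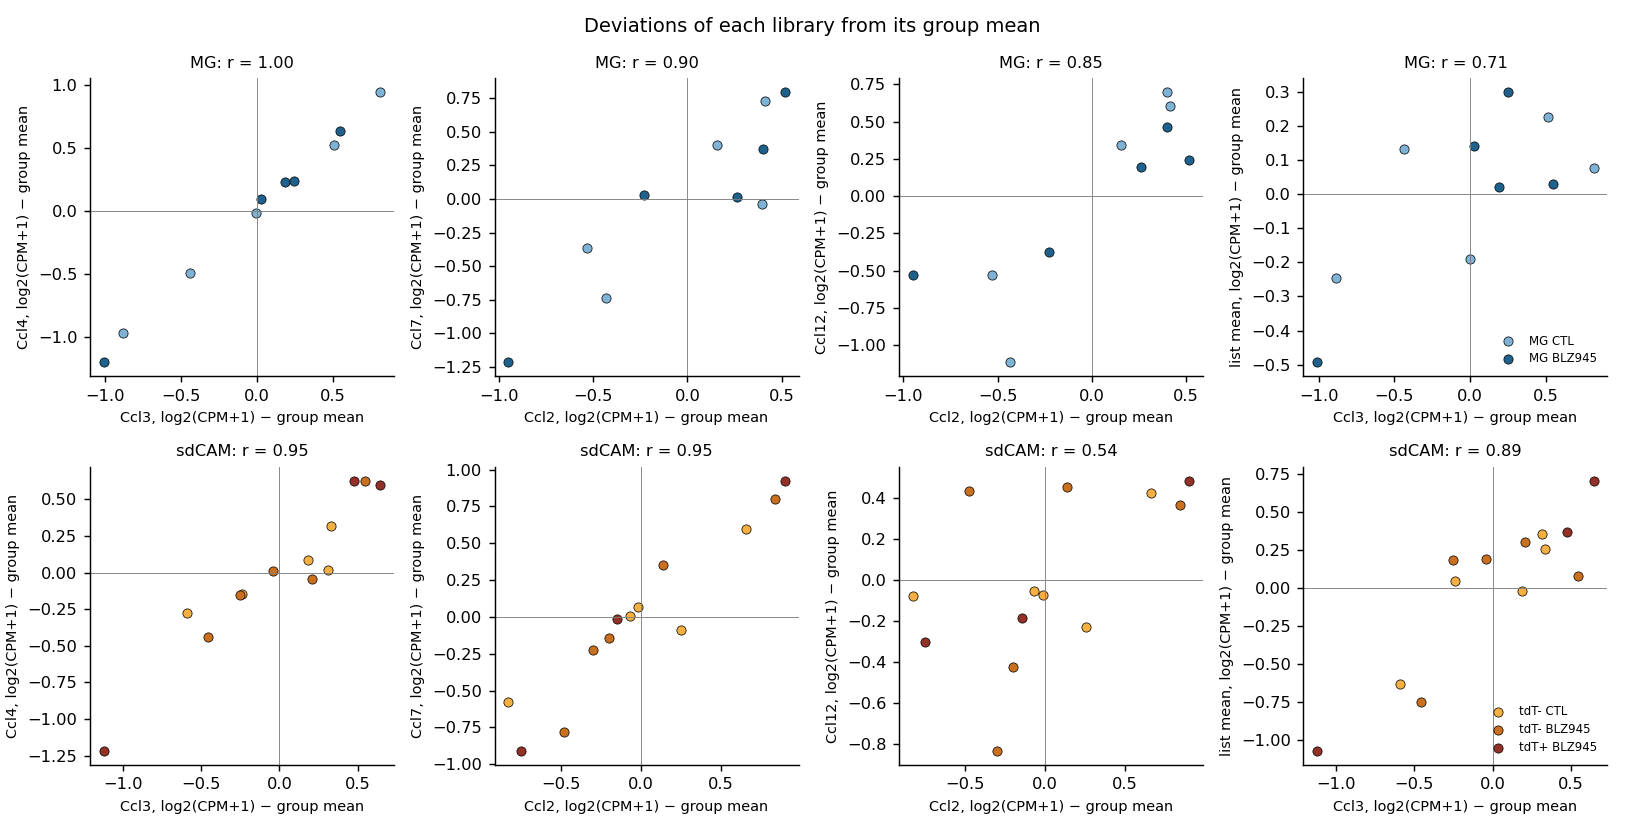
Deviation of each library from its group mean, on the log2(CPM + 1) scale, for 4 pairs of measures in MG (top) and sdCAMs (bottom), coloured by group. The Ccl3 and Ccl4 panels lie close to a line (r = 0.998 and 0.949), the Ccl2 and Ccl12 panel of sdCAMs is scattered (r = 0.544), and in the panels of the list of early response genes a few libraries lie far below the rest.

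Among the receptors, Ccr1 was higher in sdCAMs than in MG. Ccr1, a receptor of Ccl3, Ccl6 and Ccl9, was at 15.8 to 97.7 CPM in MG libraries and 353 to 835 CPM in sdCAM libraries. Its log2 fold change in sdCAMs was 3.71 (SE 0.40, adjusted p = 3.04e-07) in CTL mice, 3.17 (SE 0.39, adjusted p = 1.90e-06) for tdT- and 3.47 (SE 0.41, adjusted p = 5.01e-07) for tdT+ sdCAMs in BLZ945 mice. The populations did not overlap in Ccr1, and its calls were kept without any 1 library and with the animal as a block.

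Ccr2, the receptor of Ccl2, Ccl7 and Ccl12 and the gene that drives the Cre here, was low throughout. It was at 2.22 to 10.4 CPM in MG, 5.87 to 17.7 CPM in tdT- CTL and 8.04 to 42.9 CPM in tdT+ BLZ945 libraries. In tdT- BLZ945 it was at 121 (F1), 22.7 (F2), 8.90 (F3), 26.2 (M1) and 0 CPM (M2). Its call in tdT- against MG BLZ945 (log2 fold change 3.17, SE 0.87, adjusted p = 0.00763) was lost without F1 (1.85, adjusted p = 0.0733) and with the animal as a block (adjusted p = 0.241). Ccr3, a receptor of Ccl24, was at most 4.89 CPM in any library. It was not called with all libraries, but was called lower in tdT- than in MG BLZ945 without tdT- F1 (log2 fold change -3.23, adjusted p = 0.0489, against -1.64 with it) and in tdT+ than in MG BLZ945 without tdT+ F2 (adjusted p = 0.0384). Ccr8, the receptor named for mouse Ccl8, had at most 1 count in every library. The tdT+ libraries did not overlap with MG BLZ945 in Ccr2 (2.40, SE 0.91), but the adjusted p of 0.0564 missed the threshold, and it passed in DESeq2, with the 8 libraries alone and without tdT+ F2. One allele of Ccr2 carried the Cre in all groups.

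**Figure D5:**
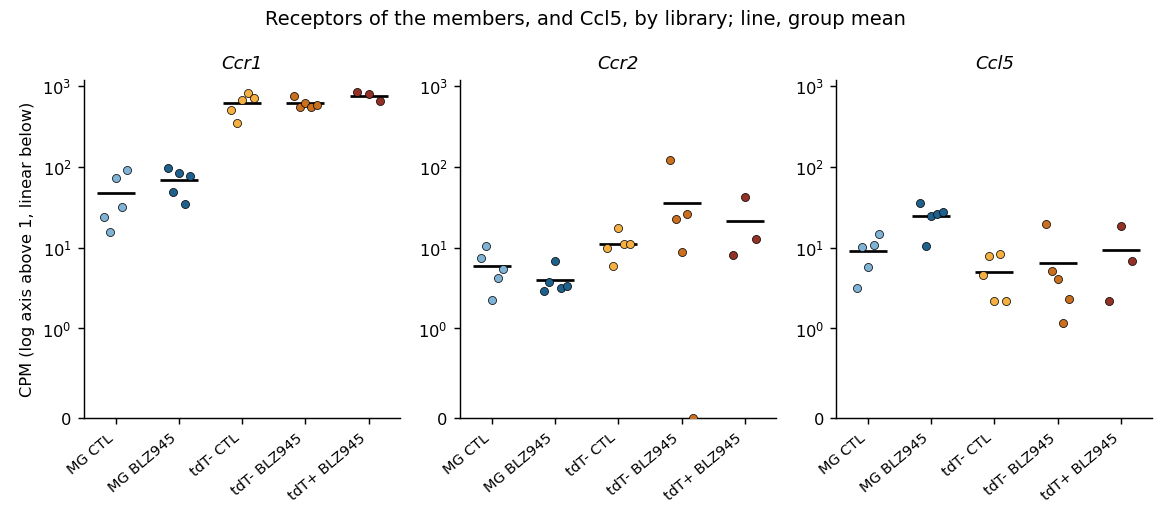
Level of Ccr1, Ccr2 and Ccl5 in every library, as CPM on an axis that is logarithmic above 1 and linear below, by group, with the group mean as a line. Ccr1 is at 353 CPM or more in all sdCAM libraries and below 98 CPM in all MG libraries, and tdT- BLZ945 F1 is the highest Ccr2 library at 121 CPM.

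Of the 12 other CC chemokine genes in the table, 3 were tested between tdT- sdCAMs and MG. Ccl5, another ligand of Ccr1, was the only one called by edgeR with all libraries and its filter on low counts, lower in tdT- than in MG BLZ945 (log2 fold change -1.93, SE 0.62, adjusted p = 0.0211). That call was lost without MG BLZ945 F1 and without the M1 pool (adjusted p up to 0.0634). Without tdT- BLZ945 F1, where Ccl5 was at 19.6 CPM against 1.17 to 5.19 CPM in the other 4 tdT- BLZ945 libraries, the difference was -2.95 (adjusted p = 0.000582). Ccl25 was called higher in tdT- than in MG BLZ945 without tdT- F2 (adjusted p = 0.00632), and Ccl27a higher in tdT+ than in MG BLZ945 by DESeq2 and without MG BLZ945 F1 or tdT+ M2 (adjusted p down to 0.00807). In MG, Ccl5 was at 3.21, 10.2, 5.73, 10.9 and 14.9 CPM in CTL (F1, F2, F3, M1 and M2) and at 36.2, 10.5, 24.6, 26.1 and 27.4 CPM in BLZ945. All BLZ945 libraries but F2 were above every CTL library, and the difference of 1.45 on the log2 scale (SE 0.36, adjusted p = 0.0849) missed the threshold, but passed it in DESeq2, with no filter on low counts, and without MG CTL M2 or MG BLZ945 F2. Ccl22, which dendritic cells make, was at 74.8 CPM in tdT- BLZ945 F1 and at most 1.54 CPM in the other 22 libraries, and Ccr7, a receptor of migrating dendritic cells, was at 45.6 CPM in F1 and at most 1.11 CPM elsewhere. Ccl20 and Ccl21a had 0 counts in every library.

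Over all 23 libraries, the genes whose log2(CPM + 1) was most like that of a member were sought among 8800 genes. Such a correlation mostly reads the split between MG and sdCAMs, which all libraries share, and is given as a description. For Ccl8 the 3 genes were Mmp9 (r = 0.992), Mgl2 (0.992) and Wfdc17 (0.992), and for Ccl24 Cbr2 (0.987), Snx3 (0.987) and Fpr1 (0.986). Ccl7 was most like Nrp1 (0.976), Mtss1 (0.973) and Mndal (0.970), and Ccl6 most like Kmo (0.968), Ninj1 (0.965) and Arpc3 (0.965). Ccl9 was most like Ms4a6d (0.963), Mt2 (0.960) and its neighbour Ccl6 (0.951). Ccl2 came out with Ccl7 (0.922), Marcksl1 (0.898) and Arhgap10 (0.885). On the MG side, Ccl4 was most like Adamts1 (0.933), Apbb2 (0.929) and Asph (0.926). Ccl3 was most like Ccl4 (0.856), the cytokine gene Tnf (0.837) and the inflammasome gene Nlrp3 (0.827). Ccl12, which did not follow the split, reached only 0.661 (B4galt5), 0.650 (Rsad2, an interferon-induced gene) and 0.631 (Ube3a).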

How the data were processed

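RNA of sorted cells was measured by SMART-Seq. The authors deposited raw counts, whole numbers of reads for each gene symbol. Per the labels, the authors aligned with STAR 2.7.11a and counted with featureCounts (2.0.6 in the submitters' processing notes), on a Gencode annotation whose mouse build was not clear. How reads matching several genes were treated, or their strand, is not given in the sources used here, so counts of neighbouring Ccl genes with similar sequence are uncertain. Amplified reads without molecular identifiers are not independent molecules, so the intervals of the Ccl8 ratios, which rest on counts, cover counting error only.

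Tests used edgeR 4.0.16 with R 4.3.3 (TMM, filterByExpr, glmQLFit and glmQLFTest, Benjamini-Hochberg over all genes tested, 0.05). MG were fitted alone, the 3 sdCAM groups together, tdT- sdCAMs and MG in 1 model of 4 groups, and tdT+ sdCAMs against MG in a model of all 23 libraries. SE is the log2 fold change divided by the root of the F statistic, and its 95% intervals include the spread between libraries. Correlations used 100000 permutations within groups (scipy 1.17.1), and alignments Biopython 1.88. Alternatives were DESeq2 1.42.0, other scaling and filters, other sets of libraries, each library left out and the animal as a block. On simulated counts (11264 genes) the MG comparison recovered 95% of changes of 2 on the log2 scale, that of tdT- sdCAMs after BLZ945 (13076 genes) 60%, and those of tdT+ sdCAMs against tdT- BLZ945 and tdT- CTL 55% and 54%. Smaller changes, as all those of the members in these comparisons were, were not simulated, so their recovery is not known. Within groups no library was a duplicate of another, as the chi-square between the most similar replicates averaged 12.4 over genes. Libraries of different groups were not compared in this way.

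Groups came from the sample titles. Within a treatment, libraries with the same name (F1 and so on) come from the same animal or pool, as the animal numbers in the labels show, and deviations of such pairs correlated at 0.0287 to 0.183 across genes. The labels do not tie replicates of a group to litters or days, so p-values measure the spread between these libraries. The label of the M1 BLZ945 pool repeats an animal number of F2, and an alternative left this pool out. Its MG and tdT- libraries held 0 CPM of Xist and so showed no female cells. The BLZ945 F2 libraries held 193 (MG), 113 (tdT-) and 108 CPM (tdT+). The members, gene lists and tests were chosen with earlier results of these data known. Named genes were all 9 members, listed genes with the values that a comparison turned on, and the 3 genes most like each member. Promoter sequences came from RefSeq (GRCm38.p6), with entries for 5 of the 9 members. Some listed genes are not reported here.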

Additional observations from a re-analysis of the deposited data

Results flagged for a closer look

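In groups of 5 libraries, 1 library stood apart from the other 4 by Dixon's test on log2(CPM + 1) in 2 of 36 sets of values, and chance flags about 1 in 20. For Ccl6 in tdT- CTL, the gap of M2 (2583 CPM) to the next library was 0.737 of the range of the group. For Ccl12 in tdT- CTL, the gap of M1 (2795 CPM) to the next library was 0.733 of the range.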

How the results depend on the processing

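Ccl2, Ccl4, Ccl6, Ccl7, Ccl8, Ccl9 and Ccl24 kept their calls between sdCAMs and MG under all alternatives that tested them, except Ccl2 in tdT+ sdCAMs without M2, and Ccl3 changed as given above. With no filter on low counts, 1 member, Ccl7, was called in MG after BLZ945 (-0.77, adjusted p = 0.0455). The replicate block, which pairs libraries of an animal within a treatment, called 6 genes in place of 27 between tdT+ and tdT- BLZ945 and 1 in place of 5 for the interaction, and changed no other call of a member than that of Ccl3 in CTL mice. Across treatments the names tie no animals together, and there the block called 89 genes in MG in place of 46. DESeq2 called 2.03% of 13428 genes in MG, 69 in tdT- sdCAMs after BLZ945 (0 by edgeR, 29 in a model of all 23 libraries), 188 between tdT+ and tdT- BLZ945, 228 between tdT+ BLZ945 and tdT- CTL and 110 for the interaction. With no filter, 193 genes were called in MG, 61 between tdT+ BLZ945 and tdT- CTL and 9 for the interaction, and with 10 counts required in every library 0 for the interaction. A model of all 23 libraries called 12 in MG, 82 and 121 for tdT+ against tdT- BLZ945 and tdT- CTL, and 1 for the interaction, and without the M1 pool 29 were called in MG and 17 between tdT+ and tdT- BLZ945. Leaving out 1 library gave 22 to 102 genes in MG, 16 to 27 and 21 to 44 for tdT+ against tdT- BLZ945 and tdT- CTL, and 0 to 36 for the interaction. The causes were not tested.

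Without the 2 farthest libraries, r was 0.790 for Ccl2 and Ccl7, 0.930 for Ccl2 and Ccl12 and 0.104 for Ccl3 and the early response list in MG, and in sdCAMs 0.887 for Ccl3 and Ccl4, 0.886 for Ccl2 and Ccl7 and 0.593 for Ccl3 and the list. Of 1239 values of members under alternatives, 71 turned direction, none of them called. With the replicate block these were Ccl4 in tdT- BLZ945 against CTL (-0.00077), Ccl3 (0.0086) and Ccl6 (-0.18) in tdT+ against tdT- BLZ945, and Ccl12 in tdT- CTL against MG CTL (0.12). For tdT+ against tdT- BLZ945, Ccl6 was -0.034 without the M1 pool, and Ccl9 was 0.0011 with DESeq2 size factors, 0.013 with at least 10 counts, 0.000612 with DESeq2, 0.0051 with all 23 libraries and 0.0095 without the M1 pool. Ccl12 in tdT+ BLZ945 against tdT- CTL was 0.016 with DESeq2 size factors and with DESeq2.

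Leaving out 1 library at a time, log2 values that crossed 0 ranged as follows. In MG BLZ945 against MG CTL it was -0.18 to 0.12 for Ccl2, -0.37 to 0.053 for Ccl3, -0.34 to 0.14 for Ccl4, -0.035 to 0.53 for Ccl9 and -0.12 to 0.26 for Ccl12. In tdT- BLZ945 against tdT- CTL it was -0.092 to 0.37 for Ccl2, -0.14 to 0.14 for Ccl4 and -0.41 to 0.0069 for Ccl7. In tdT+ BLZ945 against tdT- BLZ945 it was -0.31 to 0.37 for Ccl3, -0.043 to 0.61 for Ccl4, -0.23 to 0.20 for Ccl6, -0.77 to 0.16 for Ccl7 and -0.28 to 0.14 for Ccl9. In tdT+ BLZ945 against tdT- CTL it was -0.77 to 0.12 for Ccl2, -0.55 to 0.13 for Ccl3, -0.0057 to 0.65 for Ccl4, -0.31 to 0.13 for Ccl12 and -0.27 to 0.23 for Ccl24. In tdT- CTL against MG CTL it was -0.22 to 0.15 for Ccl12. The range was -0.058 to 0.41 for Ccl2, -0.29 to 0.12 for Ccl3, -0.099 to 0.37 for Ccl4 and -0.14 to 0.59 for Ccl9 in the interaction. In tdT+ BLZ945 against MG BLZ945 it was -0.42 to 0.014 for Ccl12.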
